A study of Mus musculus with 4 samples.

Results

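Among the 926 CD4 cells of the alloBMT library, 420 held at least 1 unique molecule (UMI) of Pdcd1 RNA and 506 held none. These 420 Pdcd1-positive cells, chosen by that count alone out of 3587 cells in the whole series, are described here against the 506 Pdcd1-negative cells of the same library. C57Bl/6 recipients were transplanted with 5000000 bone marrow cells and 500000 CD4 plus 500000 CD8 T cells of C3H.SW donors (labelled C3HSW in the recipient field), and received nothing further (alloBMT) or 50 mg/kg cyclophosphamide on days 3 and 4 (PT-Cy). Bone marrow of 4 mice per group was pooled on day 14, its CD4 and CD8 T cells were sorted by flow cytometry, and the 10x Multiome assay then measured RNA together with open chromatin (ATAC) in single nuclei. There was 1 library per group and assay, so nothing here has a replicate check. The labels do not say whether a sorted T cell came from the graft or the recipient. The alloBMT and PT-Cy cells share the transplant and differ by the drug. RNA counts covered the CD4 set, in which every cell held a Cd4 UMI and none a Cd8a UMI.

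Pdcd1 encodes PD-1, an inhibitory receptor that T cells put on their surface after antigen stimulation and keep when stimulation persists. When PD-1 meets its ligands PD-L1 (Cd274) or PD-L2, its cytoplasmic tail recruits the phosphatase SHP-2 (Ptpn11), which dampens signals from the T cell receptor and from CD28. Persistent expression together with the transcription factor TOX and further inhibitory receptors is the textbook picture of T cell exhaustion, whereas follicular helper cells carry PD-1 together with CXCR5 and BCL6. After an allogeneic transplant, donor T cells meet recipient antigens throughout the body.

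The cells of both sides carried a T cell profile. Cd3e UMIs were found in 92.1% of Pdcd1-positive and 89.1% of Pdcd1-negative cells, and Trac, the T cell receptor alpha constant gene, in 88.1% and 81.4%. Markers of other blood cells were scarce on both sides. The B cell list summed to 16.6 and 13.8 CPM (UMIs scaled to 1000000 per side), with Pax5 and Ebf1 at 0 UMIs, the neutrophil list to 36.4 and 34.3 CPM, and the myeloid list to 310 and 285 CPM. Haemoglobin RNA, which T cells do not make, gives the level of free RNA: an Hbb-bs UMI was found in 31.7% of positive and 28.5% of negative cells. Cd8b1, a CD8 gene, was found in 24.05% and 18.58% of cells, and the CD8 lineage list summed to 946 and 716 CPM, with all 5 measured genes above 0, none past 1.5-fold and a median log2 ratio of 0.40.

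Pdcd1 RNA was sparse. Of the positive cells, 256 held 1 UMI, 103 held 2, 42 held 3, 10 held 4, 8 held 5 and 1 held 8, which made 676 UMIs or 448 CPM of the summed RNA of that side. The cells just inside the rule, with 1 UMI, summed to 297 CPM, and those just outside it held 0. The positive share was 45.4% (exact 95% interval 42.1 to 48.6, counting error only). If all cells had carried Pdcd1 at 1 common rate, their depths alone would have given 49.2%.

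Depth moved with the side. Pdcd1-positive cells had a median of 2959.5 UMIs and 1652.5 genes and Pdcd1-negative cells a median of 2642.5 UMIs and 1524 genes, while the ATAC medians were 7476 and 6384.5 counts. The median mitochondrial share of UMIs was 3.88% and 3.50%. The positive share was 36.4% in the shallowest of 5 depth groups and 61.6% in the deepest, against 34.3% and 71.1% at the common rate. When each cell was thinned to 1971 UMIs, leaving out 92 shallower cells, 36.0% were positive. A cell with no UMI can therefore still have held Pdcd1 RNA, and the negative side is a mixture.

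The positive share also differed between the clusters in which the authors placed the cells, and here the common rate gave a different order. Cluster 1 held Pdcd1 in 61.6% of 320 cells (56.0 to 66.9), where the common rate gave 51.8%. Cluster 0, the largest with 374 cells, held it in 32.9% (28.1 to 37.9), where the common rate gave 47.1%. Thinned to 1971 UMIs the shares were 49.7% and 26.7%. Clusters 2, 3 and 4 gave 52.4% of 42, 42.9% of 156 and 32.4% of 34 cells, and after thinning 25.6%, 35.1% and 19.4%. The sources used here do not say how these clusters were built, and Pdcd1 may have been among the genes that set them, so the shares are a description.

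**Figure D1:**
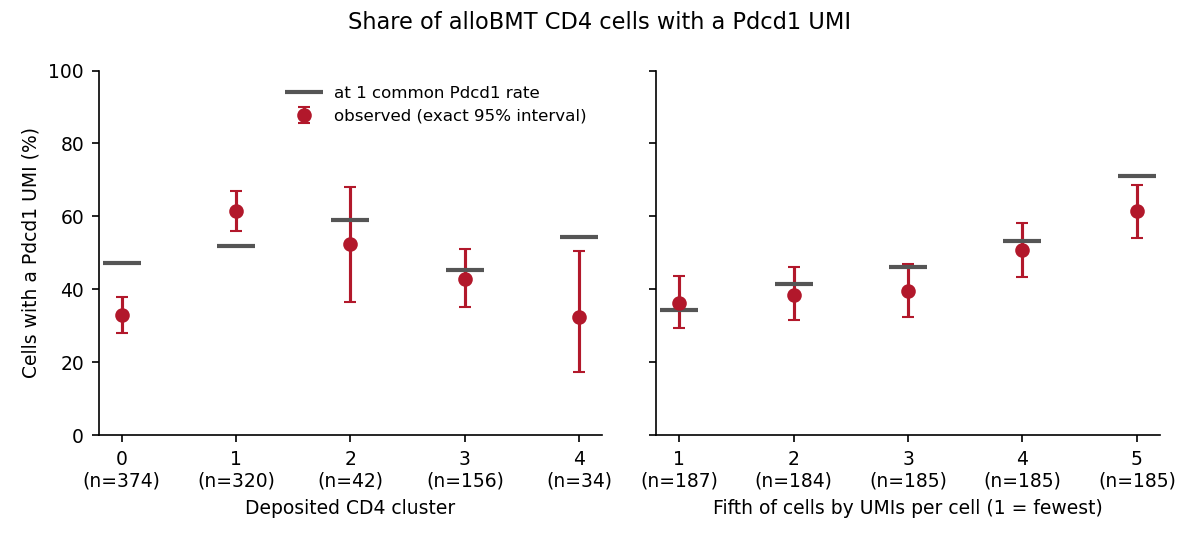
Share of alloBMT CD4 cells with a Pdcd1 UMI (percent) by deposited cluster and by depth group. Points are observed shares with exact 95% intervals and grey bars the share at 1 common Pdcd1 rate; cluster 1 lies above its bar at 61.6% and cluster 0 below it at 32.9%, while the shares by depth rise from 36.4% to 61.6%.

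Fewer PT-Cy cells held Pdcd1. A UMI was found in 60 of 284 CD4 cells, or 21.1% (16.5 to 26.3), although these cells were deeper, with a median of 5091 UMIs on the positive and 3596 on the negative side. Thinned to 1971 UMIs the share was 10.8% in PT-Cy against 36.0% in alloBMT. The libraries filled different clusters: 238 PT-Cy cells lay in cluster 2, with a share of 23.1%, and 42 alloBMT cells, with 52.4%, both before thinning. After thinning, 10 of 39 alloBMT cells of cluster 2 were positive, or 25.6% (13.0 to 42.1). PT-Cy cells were not thinned by cluster, so the shares within cluster 2 were not compared at equal depth. The PT-Cy cells, divided by the same rule, serve below as a second library that the choice of alloBMT cells did not use.

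The RNA of Pdcd1-positive cells had more Tnfrsf9, Havcr2, Prf1 and Tox2 and less Il7r, Cxcr3, Il18rap and Rora, each by at least 1.5-fold. Counts were summed per side, and a gene counted as higher or lower when it differed by at least 1.5-fold with at least 100 UMIs over both sides. Of 5114 genes measured at that depth, 84 were higher (1.64%) and 88 lower (1.72%) in Pdcd1-positive cells, 172 in all (3.36%), with a median log2 ratio of -0.01. Only 5 of the higher and 13 of the lower genes passed 2-fold. Cells of 1 library are not replicates, so no test was made, and all intervals below cover counting error and not the spread between cells or mice. The cells were divided on a gene of the same RNA, so these values describe the division and support nothing further.

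Of the exhaustion genes most had a ratio above 0 and few passed 1.5-fold. Tox, the transcription factor that sustains the exhausted state, was at 6858 CPM in positive and 4847 CPM in negative cells, a log2 ratio of 0.50 (0.46 to 0.54), under 1.5-fold. Its level was 6872 CPM in cells with 1 Pdcd1 UMI, 6993 with 2 and 6618 with 3 or more. It was found in nearly all cells of both sides, and its ratio was 0.45 in cluster 0, 0.11 (0.04 to 0.17) in cluster 1 and 0.63 in cluster 3. None of the 13 cells without a Tox UMI held Pdcd1, with an exact 95% interval of 0 to 24.7%. Tox2, a relative of Tox, was at 166 and 94.9 CPM, a log2 ratio of 0.81 (0.51 to 1.11). Nr4a2, an orphan nuclear receptor induced by T cell receptor signals, was at 665 and 512 CPM (log2 0.38), and Entpd1, the ectonucleotidase CD39, at 634 and 497 CPM (log2 0.35); both stayed under 1.5-fold. Of the 20 genes of the exhaustion list 17 were deep enough, 13 of them had a ratio above 0, 2 were higher by 1.5-fold, none was lower, and the median was 0.21 against -0.01 for all genes.

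Inhibitory receptors did not all follow Pdcd1. Havcr2, which encodes Tim-3, was at 232 CPM in positive and 146 CPM in negative cells (log2 0.67, 0.42 to 0.92), with 212 CPM in cells with 1 Pdcd1 UMI and 309 CPM in those with 3 or more. Lag3, a receptor for MHC class II, was at 305 and 219 CPM (log2 0.48, 0.27 to 0.69). Ctla4 went the other way, at 408 and 483 CPM (log2 -0.24, -0.40 to -0.09), and Tigit was at 122 and 114 CPM with an interval that spans 0 (log2 0.10, -0.21 to 0.40). Of the 11 deep enough of 14 listed receptors, Havcr2 alone passed 1.5-fold, 9 had a ratio above 0, and the median was 0.29.

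Tnfrsf9 came first of the 12 leading genes on the higher side, ranked by the near bound of the interval. It encodes 4-1BB, a costimulatory receptor that appears on T cells after antigen contact, and was at 266 CPM (401 UMIs) in positive and 131 CPM (199 UMIs) in negative cells, a log2 ratio of 1.02 (0.77 to 1.27). By Pdcd1 UMI number it was at 131, 245, 219 and 398 CPM for 0, 1, 2 and 3 or more. A Tnfrsf9 UMI was found in 39.0% of positive and 23.5% of negative cells, and in 28.3% and 18.4% after thinning. On the lower side of the costimulatory list were Cd226 at 272 and 420 CPM (log2 -0.63) and Slamf1 at 110 and 169 CPM (log2 -0.62), while Icos, at 168 and 229 CPM (log2 -0.45), stayed under 1.5-fold. Of 11 genes of that list 1 was higher, 3 were lower, and the median was -0.23.

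Regulators that restrain signalling differed in their ratios. Ubash3b, a phosphatase that dampens T cell receptor signals, was at 881 and 542 CPM (log2 0.70), with 832, 937 and 961 CPM at 1, 2 and 3 or more Pdcd1 UMIs against 542 CPM at 0. Cblb, a ubiquitin ligase that raises the threshold for activation, was at 2702 and 2026 CPM (log2 0.42, under 1.5-fold), and was at 2544, 2787 and 3091 CPM over the same classes. Pag1, the membrane adaptor that holds the inhibitory kinase Csk, ran opposite at 74.8 and 160 CPM (log2 -1.10). In PD-1's own pathway Ptpn11 was at 132 and 113 CPM (log2 0.22, -0.08 to 0.52) and Cd274 at 78.1 and 91.6 CPM (log2 -0.23, -0.60 to 0.14). Of 13 genes of that pathway list none was higher and 1 lower, with a median of 0.00.

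**Figure D2:**
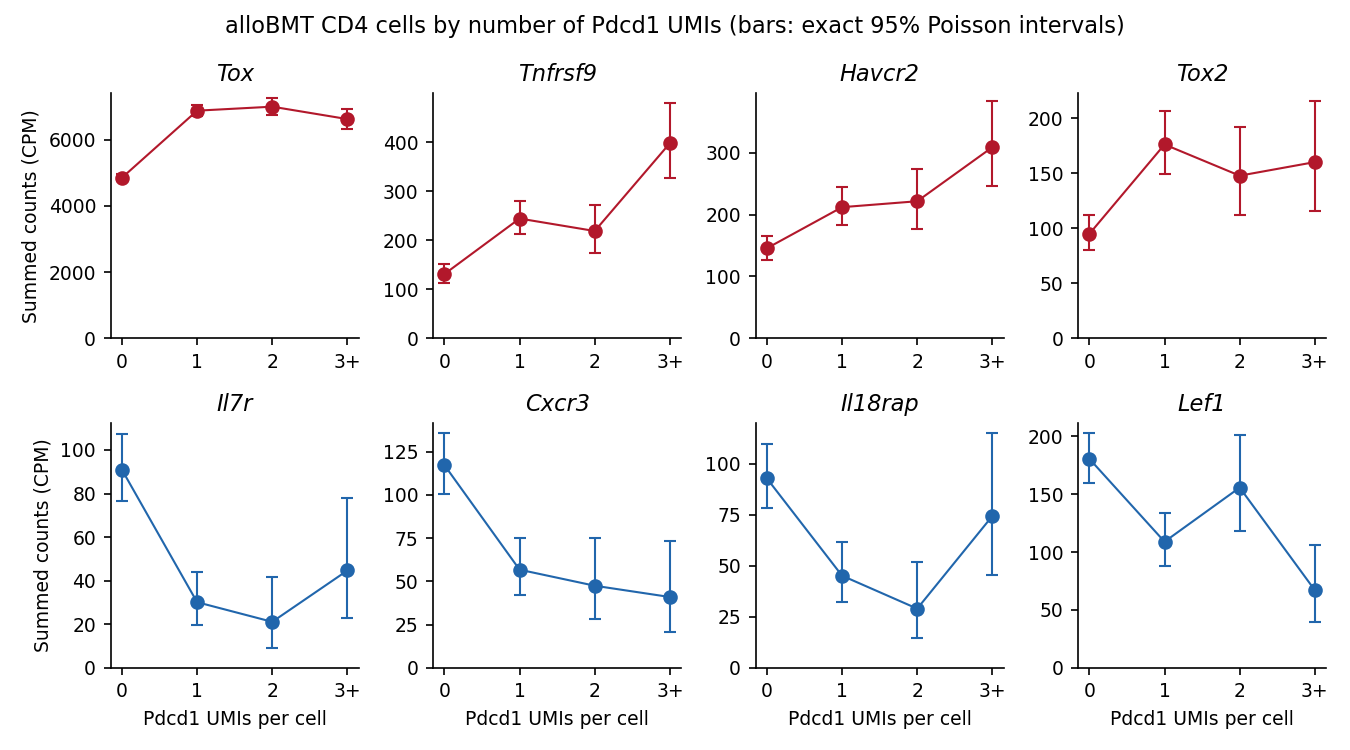
Summed level (CPM, linear axis from 0) of 4 genes with a ratio above 0 and 4 with one below 0 in alloBMT CD4 cells with 0, 1, 2 or at least 3 Pdcd1 UMIs, with exact 95% Poisson intervals. Tox steps from 4847 to 6872 CPM at the first UMI and stays level, Tnfrsf9 reaches 398 CPM in the last class, and Cxcr3 goes from 117 CPM to 41.0 CPM.

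Cytotoxic genes and chemokines divided. Prf1, the pore-forming protein perforin, was at 312 and 188 CPM (log2 0.73, 0.52 to 0.95), and at 287, 309 and 395 CPM with 1, 2 and 3 or more Pdcd1 UMIs. The chemokines Ccl3 (437 and 304 CPM, log2 0.52) and Ccl4 (704 and 509 CPM, log2 0.47) stayed under 1.5-fold. Granzyme B, which enters target cells through perforin pores, was at 218 and 231 CPM (log2 -0.08, -0.30 to 0.14), and Ccl5, a further chemokine, at 5164 and 5322 CPM (log2 -0.04, -0.09 to 0.00). In cluster 1 granzyme B was at -0.69 (-1.02 to -0.36) and Ccl5 at -0.25 (-0.32 to -0.17). In clusters 0 and 3 the intervals of both span 0. In PT-Cy both were above 0, at 0.54 (0.29 to 0.79) and 0.23 (0.06 to 0.41). Perforin was thus the only one of 16 listed genes of this kind past 1.5-fold, and the list's median was 0.14. When ratios were taken within clusters Prf1 was at 0.427, under 1.5-fold, and the list's median was 0.00203. In clusters 0 and 1 Prf1 was at 0.296 (-0.184 to 0.767) and 0.206 (-0.0843 to 0.501), with intervals that span 0. In cluster 3 Prf1 was at 0.999 (0.371 to 1.65), from 61 and 34 UMIs. Ifng was at 226 and 205 CPM, with an interval that spans 0 (log2 0.14, -0.09 to 0.37).

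The remaining leading genes on the higher side came from metabolism, signalling and less familiar functions. Prr5l, a partner of the kinase complex mTORC2, was at 168 and 83.7 CPM (log2 1.01), and Gpd2, the mitochondrial glycerol-3-phosphate dehydrogenase, at 342 and 186 CPM (log2 0.88). Chn2 and Srgap3, which switch off small GTPases, had log2 ratios of 0.73 and 0.76, and the secreted protease Adamts6 one of 0.80. Abcb9, a lysosomal peptide transporter, stood at 0.95, the membrane scaffold Ank3 at 0.78 and Zpbp, known from sperm, at 1.01. For Chn2 the levels were 1182 and 714 CPM and for Adamts6 774 and 443 CPM.

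Among the cytokine receptors few genes passed 1.5-fold, in both directions. Il7r, the receptor chain for the survival cytokine IL-7, was at 30.5 CPM (46 UMIs) in positive and 90.9 CPM (138 UMIs) in negative cells, a log2 ratio of -1.58 (-2.09 to -1.09). It was found in 5.95% and 9.88% of cells. Il18rap and Il18r1, the chains of the IL-18 receptor, had log2 ratios of -1.003 and -0.58, the second just under 1.5-fold. Il6st, the signalling chain shared by IL-6 family receptors, was higher, at 70.8 and 40.2 CPM (log2 0.82, 0.35 to 1.30). Of 19 listed cytokine receptor and STAT genes 1 was higher, 2 were lower and the median was -0.10.

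Few of the listed trafficking and Th1 genes passed 1.5-fold, and those that did were lower. Cxcr3, the chemokine receptor of Th1 cells, was at 51.6 CPM (78 UMIs) and 117 CPM (178 UMIs), a log2 ratio of -1.18 (-1.59 to -0.79), and was at 56.8, 47.5 and 41.0 CPM with 1, 2 and 3 or more Pdcd1 UMIs. Ccr2, a receptor for monocyte chemoattractants, was at 101 and 162 CPM (log2 -0.69) and Itga2, an integrin chain that binds collagen, at 21.8 and 48.8 CPM (log2 -1.16). Rora, a nuclear receptor of innate-like and Th17 cells, was at 176 and 336 CPM (log2 -0.93), and Tbx21, the Th1 master regulator, at 97.3 and 127 CPM (log2 -0.39, under 1.5-fold). The Th1 list had 0 higher and 2 lower of 13 genes with a median of -0.24, and the trafficking list 0 higher and 2 lower of 13 with a median of -0.26.

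Of the stem-like, memory and naive genes 4 of 9 were lower and none higher. Satb1, a chromatin organiser of naive T cells, was at 70.8 and 124 CPM (log2 -0.81, -1.16 to -0.46), and Lef1, a transcription factor of the same state, at 113 and 181 CPM (log2 -0.67, -0.96 to -0.39). In clusters 0, 1 and 3 Satb1 was at 0.12, -0.19 and -0.28, with intervals that span 0. Lef1 was at 0.04 and 0.11 in clusters 0 and 3, with intervals that span 0, and at -1.35 (-2.15 to -0.57) in cluster 1. Pooled over all clusters Satb1 was at -0.76 and Lef1 at -0.30. Clusters 0, 1 and 3 held 43 and 73, 35 and 22, and 14 and 19 of the 107 and 188 Satb1 UMIs. The rest lay in clusters 2 and 4, of 42 and 34 cells. Slamf6, a surface marker of stem-like exhausted cells, was at 117 and 148 CPM (log2 -0.33, -0.63 to -0.04), under 1.5-fold. The list had a median of -0.33, and of -0.16 when ratios were taken within clusters. By contrast, the stem-like RNA score that the authors deposited, with genes unknown here, was slightly higher in positive cells, by 0.0783 SD. In its own unit that score differed by 0.0140, 0.0128 and 0.0167 within clusters 0, 1 and 3. Tcf7, the defining factor of stem-like cells, held 32 and 52 UMIs, too few to count.

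Interferon response genes mostly had ratios below 0. Ly6a, the surface protein Sca-1, was at 65.5 and 117 CPM (log2 -0.84) and Irf9, part of the factor that transmits interferon signals, at 45.7 and 71.8 CPM (log2 -0.65). Iigp1, an interferon-induced GTPase outside the list, was at 29.1 and 65.9 CPM (log2 -1.18). Of 14 listed genes 13 had a ratio below 0, 6 had an interval below 0 and 2 were lower by 1.5-fold. The median was -0.23, against -0.01 for all genes, and -0.10 when ratios were taken within clusters.

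Defining markers of follicular helper and regulatory T cells were sparse on both sides. Cxcr5 held 11 and 5 UMIs, Bcl6 12 and 25, and Foxp3 19 and 23, while Il21, a follicular cytokine, held 39 and 21. Cd4 itself was at 641 and 658 CPM (log2 -0.04). Of 10 follicular genes deep enough Tox2 and Il6st were higher and Tnfsf8 was lower, with a median of -0.23. Of 7 regulatory genes Tnfrsf9 was higher and none lower, with a median of 0.10. Ikzf4, the regulatory cell factor Eos, held 53 and 21 UMIs (log2 1.34, 0.59 to 2.15), under the minimum of 100. Ikzf2, the factor Helios, was at 671 and 606 CPM (log2 0.15). In clusters 0, 1 and 3 Ikzf2 was at 0.17 (-0.17 to 0.51), 0.65 (0.38 to 0.94) and 0.77 (0.31 to 1.24). In PT-Cy it went the other way, at 1207 and 1691 CPM (log2 -0.49, -0.65 to -0.33).

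Division genes gave different ratios in different settings. Cenpf, a kinetochore protein of dividing cells, was at 50.32 and 25.04 CPM (log2 1.01). Its ratio was 0.62 within depth groups and -0.21 when cells were thinned to equal depth and divided on the thinned Pdcd1 count. Mki67 was at 201 and 175 CPM (log2 0.20, -0.04 to 0.44). The division list had a median of 0.20 over 8 genes, and -0.06 when ratios were taken within depth groups.

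A few cells carried much of some lower genes. Of 270 Lsamp UMIs, 108 (40.0%) lay in 5 cells, all of them Pdcd1-negative, and without these cells the log2 ratio of this adhesion molecule went from -1.71 to -0.66. Tnfsf8, the ligand of CD30, held 27.0% of its UMIs in 5 cells and went from -1.04 to -0.63, and Nav2, a cytoskeletal protein, held 25.3% and went from -0.98 to -0.62. Il7r, with 20.1% in 5 cells, stayed at -1.43. Cxcr3 stayed at -1.20. For the 12 leading higher genes the 5 cells with the most UMIs held 3.34% to 10.2%, and their ratios were 0.59 to 1.01 without them.

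In ratios pooled over the deposited clusters, the called genes kept their signs at mostly smaller ratios. A ratio pooled over clusters put Tnfrsf9 at 0.75, Tox at 0.36, Havcr2 at 0.31, Il7r at -1.23 and Cxcr3 at -0.78. All 84 higher and 88 lower genes kept their sign in it, and 44 and 51 of them still passed 1.5-fold. Of the 12 leading higher genes 10 were above 0 in cluster 0 and 12 in clusters 1 and 3, and of the 12 leading lower genes 12, 9 and 11 were below 0 in these clusters. In clusters 0, 1 and 3 the intervals of 8, 7 and 11 higher genes lay above 0. Those of only 8, 2 and 4 lower genes lay below 0. In cluster 1 Cxcr3, Rora and Nav2 were above 0, with intervals that span it. Tnfrsf9 was one of the leading genes that varied, at -0.05 in cluster 0, 0.84 in cluster 1 and 0.40 in cluster 3. Havcr2, outside the leading genes, varied too. It was at -0.31 (-0.97 to 0.31) in cluster 0, 0.33 (-0.001 to 0.66) in cluster 1 and 0.97 (0.29 to 1.68) in cluster 3. Il7r was at -0.36 (-1.22 to 0.44), -0.67 (-2.33 to 1.03) and -2.84 (-6.01 to -0.76) in clusters 0, 1 and 3. These clusters held 19 and 45, 8 and 7, and 2 and 16 of its 46 and 138 UMIs. Clusters 2 and 4 held the rest. Cxcr3 was at -0.63 (-1.18 to -0.11), 0.06 (-1.11 to 1.33) and -1.61 (-2.79 to -0.56) in clusters 0, 1 and 3. Pooled over depth groups instead, all 172 genes kept their sign, and 66 higher and 82 lower genes still passed. Without the cells that held a Cd8b1 UMI, 80 genes were higher and 88 lower, among them 49 and 45 of the first 84 and 88, of which 56 and 55 still reached 100 UMIs.

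The PT-Cy library repeated the directions in part. Among genes tested in alloBMT with at least 20 UMIs in PT-Cy, 5.25% were at least 1.5-fold higher in its Pdcd1-positive cells and 7.54% at least 1.5-fold lower. Of 78 genes higher in alloBMT 13 were past 1.5-fold in the same direction in PT-Cy (16.7%) and 9 in the opposite one, and of 87 lower genes 17 (19.5%) and 4. The opposite share of the higher genes was thus also above the 7.54% of all genes. That of the lower genes was below the 5.25%. By sign alone 48 of 78 were above 0 (61.5%, against 48.9% of all genes) and 64 of 87 below 0 (73.6%, against 51.1%). Havcr2 was at 148 and 77.3 CPM in PT-Cy (log2 0.93), Prf1 at 172 and 80.5 CPM (log2 1.09) and Tox at 2456 and 1760 CPM (log2 0.48). Cxcr3 (log2 -0.75), Rora (log2 -0.51) and Ccr2 (log2 -0.69) had ratios below 0 there as well. Medians of lists, over partly other genes than in alloBMT, did not all repeat. Inhibitory receptors had a PT-Cy median of -0.28 over 12 genes and regulatory genes -0.30 over 13, against 0.29 and 0.10 in alloBMT. Costimulatory genes had 0.08 over 15, against -0.23, while exhaustion genes had 0.25 over 19, against 0.21. For Tnfrsf9 (log2 0.26, -0.18 to 0.69) and Il7r (log2 -0.27, -0.63 to 0.07) the PT-Cy intervals span 0, and Chn2 and Itga2 turned over, with intervals that also span 0. PT-Cy cells lay mainly in another cluster than alloBMT cells, and their sides differed in depth as given above and in free RNA, since Hbb-bs was at 292 CPM in positive and 535 CPM in negative cells. The part of these in the PT-Cy ratios was not tested.

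**Figure D3:**
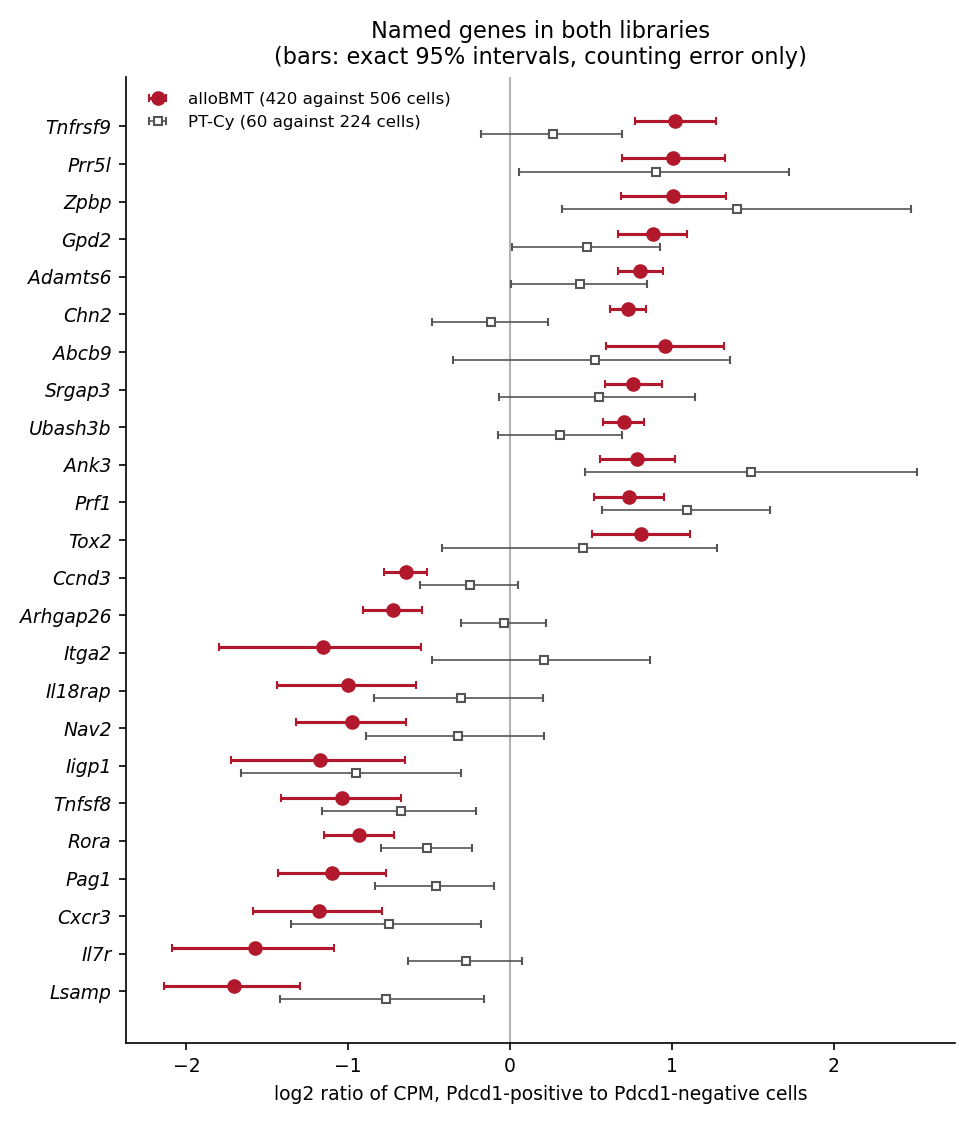
Log2 ratio of CPM, Pdcd1-positive to Pdcd1-negative cells, for the 12 leading higher and 12 leading lower genes in alloBMT (filled) and in PT-Cy (open), with exact 95% intervals. In PT-Cy 11 of the 12 higher genes lie above 0, all but Chn2, and 11 of the 12 lower genes below 0, all but Itga2.

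Chromatin at Pdcd1 was more open in the cells that held its RNA, in a readout that did not choose the cells. The 8 peaks that overlap Pdcd1 or lie within 2 kb summed to 697 counts in positive and 554 in negative cells, a log2 ratio of 0.30 (0.13 to 0.46) once each side was scaled to its total in peaks. By RNA class it was 161 CPM of the counts in peaks in cells with no Pdcd1 UMI (148 to 175), 184 with 1, 201 with 2 and 235 with 3 or more (199 to 275). In PT-Cy it was 107 CPM without and 163 with a UMI, a log2 ratio of 0.61 (0.16 to 1.05). The gene lies on the minus strand of chromosome 1, with its RefSeq start site at base 94052553 of GRCm38.p6.

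The difference was largest among the deeper peaks at the promoter. The peak at chr1:94052229-94052779, over the start site, held 115 counts in positive and 68 in negative cells, a log2 ratio of 0.72 (0.28 to 1.18). It went from 19.7 CPM without a Pdcd1 UMI to 30.3 with 1 and 35.5 with 2 or more. In cluster 1 its ratio was 0.74 (0.10 to 1.41) and in cluster 0 it was 0.21 (-0.66 to 1.05), while in PT-Cy it held 4 and 20 counts and the ratio was below 0 with an interval that spans it (log2 -0.89, -2.90 to 0.68). PT-Cy did not repeat the promoter difference, and most of its locus counts lay in the peak centred at -17.1 kb, where negative positions run from the start into the gene and past its end (39 and 57 counts, log2 0.88, 0.25 to 1.49). Of 70 named genes with a promoter peak of at least 100 counts, chosen with their RNA values known, Pdcd1 alone was past 1.5-fold more open, and the intervals of 4 lay above 0 and of 1 below it.

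The part of the promoter upstream of the start is shown because this peak covers most of it. It lies at chr1:94052554-94052803 on the minus strand and is copied from RefSeq (GRCm38.p6), 5′ to 3′, ending at the base before the start. Capitals mark the letters GGAAA, the core bound by NFAT factors, on either strand.
Pdcd1 promoter: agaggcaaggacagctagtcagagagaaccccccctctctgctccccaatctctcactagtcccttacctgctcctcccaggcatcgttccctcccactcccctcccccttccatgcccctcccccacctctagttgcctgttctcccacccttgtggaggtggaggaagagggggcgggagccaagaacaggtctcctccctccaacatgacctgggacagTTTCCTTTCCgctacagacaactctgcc
The core is present 2 times, at positions 223 and 228 counted from the first base shown, both as its reverse complement TTTCC and side by side without overlap. It is a short motif, held by 55.6% of 32851 RefSeq promoters over the same 250 bases. The letters of AP-1 (TGANTCA, in 6.75% of promoters), of an E-box (CANNTG, 66.2%), of TCF factors (CTTTGA, 13.8%) and of RUNX factors (TGTGGT, 14.0%), searched on both strands, were not in this window. NFAT genes differed little in RNA: Nfatc1 was at 644 and 555 CPM (log2 0.21, 0.08 to 0.35) and Nfatc2 at 117 and 117 CPM (log2 0.01).

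Upstream of Pdcd1 further peaks had intervals above 0. The peak at chr1:94074193-94075497, centred 22.3 kb upstream of the start, held 157 and 116 counts (log2 0.40, 0.05 to 0.76), and the one centred 26.6 kb upstream 73 and 47 (log2 0.60, 0.05 to 1.16). Within clusters the first had a log2 ratio of 0.82 (0.01 to 1.62) in cluster 0 and of -0.16 (-0.61 to 0.29) in cluster 1. The peak 3.39 kb upstream held 100 and 70 counts (log2 0.48, 0.02 to 0.94). By contrast, the largest peak of the region, centred at -17.1 kb, held 236 and 213 counts, with an interval that spans 0 (log2 0.11, -0.16 to 0.39). Inside the gene a small peak at -3.55 kb held 30 and 13 counts (log2 1.17, 0.19 to 2.23). Of 25 peaks within 50 kb, 9 held at least 100 counts, and 8 of these had a ratio above 0. The exception lay 39.3 kb upstream, with 53 and 65 counts.

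**Figure D4:**
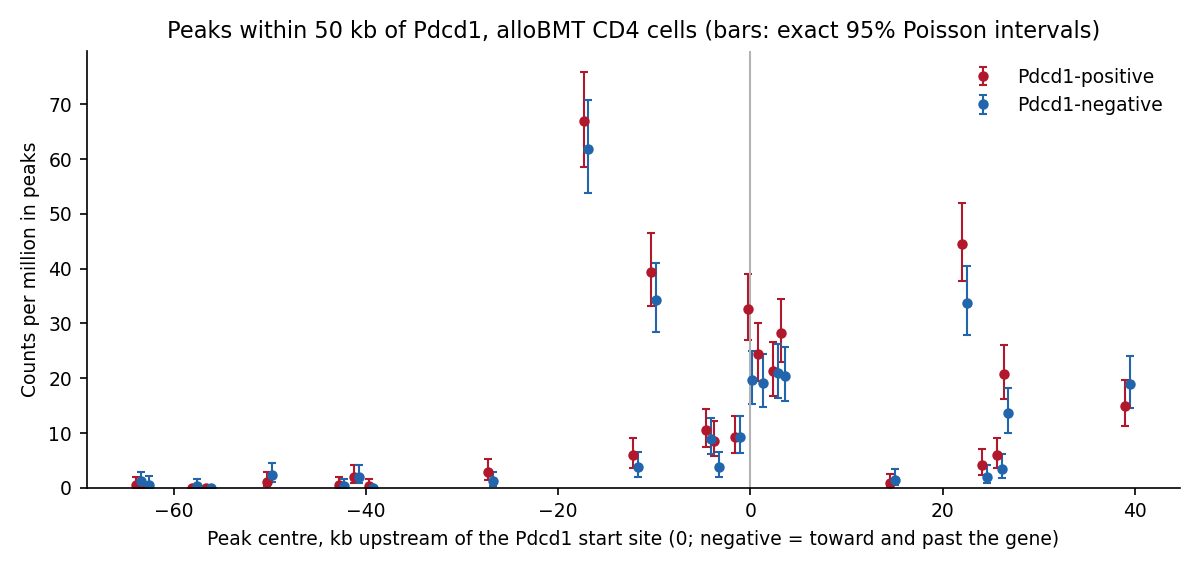
Accessibility as CPM of all counts in peaks (linear axis from 0) for the 25 peaks within 50 kb of Pdcd1, by distance of the peak centre from the start site in kb, for Pdcd1-positive and Pdcd1-negative alloBMT CD4 cells, with exact 95% Poisson intervals. The promoter peak stands at 32.6 against 19.7 CPM and the peak 22.3 kb upstream at 44.5 against 33.7 CPM.

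Beyond Pdcd1 the accessibility of the sides was close. Among the 17501 peaks that reached 100 counts, 244 (1.39%) passed 1.5-fold toward more open in positive cells and 179 (1.02%) toward less open, and of 12649 gene loci 70 (0.553%) and 45 (0.356%). On the more open side the 5 most separated peaks were one overlapping the predicted gene Gm21976 (log2 1.34), one 11.7 kb from Chst1 (log2 1.33), one overlapping Muc4 (chr16:32742272-32743205, 78 and 31 counts, log2 1.30), one overlapping Capza1 (chr3:104840379-104841553, 105 and 46 counts, log2 1.16) and one 21.8 kb from Rtca (chr3:116465194-116467117, 135 and 64 counts, log2 1.04). On the less open side a peak 28.6 kb from Hopx (chr5:77143772-77145272) held 42 and 83 counts (log2 -1.02) and had the same direction in PT-Cy (5 and 43 counts, log2 -1.68). The others were 1.89 kb from Cyth4 (log2 -1.22), 13.2 kb from Sesn3 (log2 -0.97), and overlapping Utrn (log2 -0.95) and Nsd3 (log2 -0.90). In PT-Cy all named peaks but the one near Hopx had intervals that span 0. There the peak near Cyth4 was above 0 (log2 0.43), and those at Sesn3, Utrn and Nsd3 were below it (log2 -1.45, -0.21 and -0.01). On the more open side the peak near Chst1 held 0 and 3 counts in PT-Cy, and the other named peaks were above 0. These peaks were picked for their ratios, and which gene a peak serves is not known from its position.

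Loci of the genes that differed in RNA leaned the same way. Of the 84 higher genes 75 had a locus with enough counts, and 47 (62.7%) were more open than in negative cells, against 49.0% of all loci. Of the 88 lower genes 81 had one, and 53 (65.4%) were less open, against 51.0%. The shifts were small, with medians of 0.05 and -0.08, and only 3 of the lower and none of the higher genes passed 1.5-fold at the locus. Those 3 were Il7r (36 and 78 counts, log2 -1.15, -1.76 to -0.56), Trat1, an adaptor of the T cell receptor (90 and 170 counts, log2 -0.95), and Cd226 (170 and 253 counts, log2 -0.61). In PT-Cy the Il7r locus went the other way (log2 1.07, 0.26 to 1.87).

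Single loci on the higher side differed by less. Prf1 held 308 and 226 counts (log2 0.41, 0.16 to 0.67), Havcr2 326 and 265 (log2 0.26, 0.03 to 0.50) and Ubash3b 1592 and 1326 (log2 0.23, 0.12 to 0.33). Runx3, a factor that drives cytotoxic programmes, held 1189 and 988 (log2 0.23, 0.11 to 0.36) with RNA at 477 and 353 CPM (log2 0.43). Eomes, a relative of Tbx21, held 495 and 390 counts (log2 0.31, 0.11 to 0.50) although its RNA, at 174 and 150 CPM, had an interval that spans 0. Tox held 1825 and 1600 (log2 0.15, 0.06 to 0.25), while the loci of Tox2 (log2 0.04) and Tnfrsf9 (log2 0.17) had intervals that span 0. Tcf7 was less open at 411 and 489 counts (log2 -0.29, -0.48 to -0.09), and so was Satb1 at 284 and 369 (log2 -0.41). Cxcr3, lower in RNA, held 111 and 82 counts (log2 0.40, -0.02 to 0.83).

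**Figure D5:**
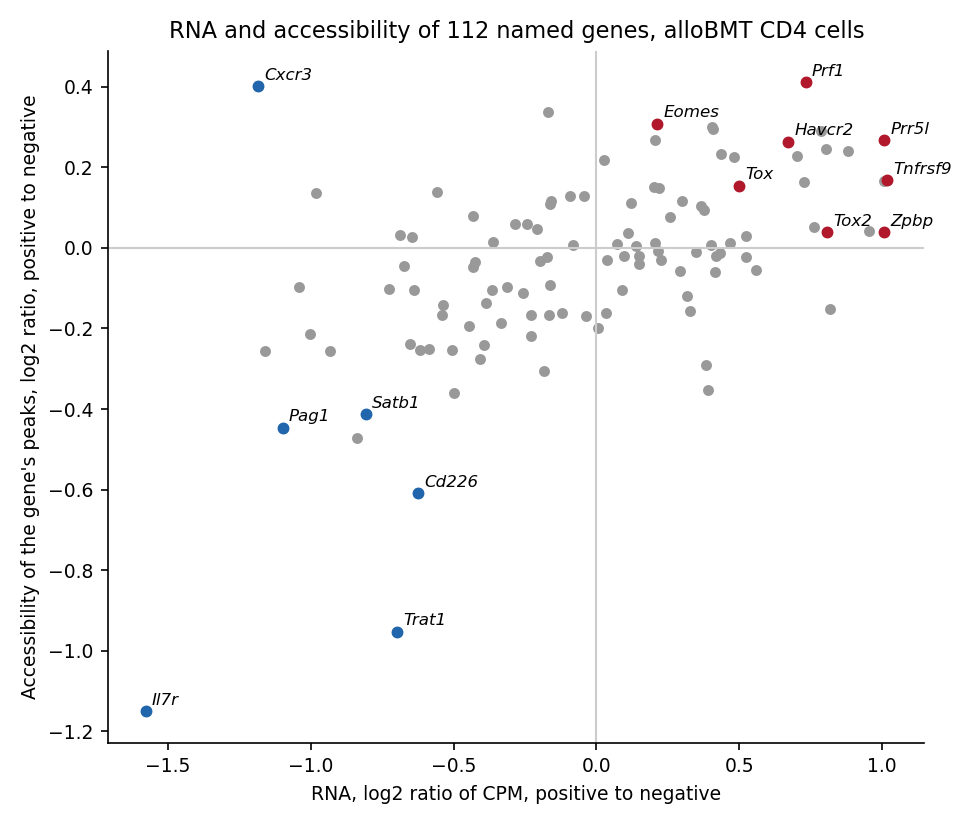
Log2 ratio of RNA (horizontal) against log2 ratio of accessibility of the gene's peaks (vertical), positive to negative alloBMT CD4 cells, for 112 named genes other than Pdcd1; labelled genes are coloured by the sign of their RNA ratio. Il7r (-1.58 and -1.15) and Trat1 (-0.70 and -0.95) lie low on both axes, and Cxcr3 (-1.18 and 0.40) is low in RNA only.

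The authors also deposited scores per cell, among them one labelled Tex for RNA and one for accessibility, whose gene sets are unknown here. The RNA score averaged 0.0221 ± 0.0352 (SD over 420 cells) in Pdcd1-positive and 0.00609 ± 0.0317 (SD over 506 cells) in Pdcd1-negative cells, and 69.5% of positive cells lay above the negative median. Within clusters the mean differed by 0.000623 in cluster 0, 0.00496 in cluster 1 and 0.0185 in cluster 3. In PT-Cy the RNA score hardly differed, by 0.0681 SD against 0.467 SD in alloBMT. There 53.3% of positive cells lay above the negative median. The accessibility score averaged 0.0433 ± 0.0351 and 0.0314 ± 0.0393, a difference of 0.314 SD, and in PT-Cy the difference was 0.329 SD. Within alloBMT clusters its mean differed by 0.00831 in cluster 0, -0.00137 in cluster 1 and 0.00597 in cluster 3. Whether Pdcd1 is in the RNA score is not known here. The stem-like RNA score differed by 0.0783 SD and the stem-like accessibility score by -0.0983 SD.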

How the data were processed

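RNA and ATAC were analysed in alloBMT and PT-Cy CD4 cells, 1 library each. Cells and lists were chosen with earlier results of these data known. Cell Ranger ARC 1.0.1 and MACS2 are named per the submitters' processing notes, with GRCh38, a human build; the genes are mouse, and deposited peaks overlapped 96.1% of 4093 GRCm38.p6 promoters of the genes tested, against 11.7% when moved by 100 kb. The deposited tables hold whole-number counts per cell, per the file headers, including intronic reads. The authors deposited a per-cell table with mitochondrial percent, fraction of fragments in peaks, the ratio of TSS enrichment and module scores, per the file headers; 44 of its 58 columns were not used. The sources used here do not say how the authors filtered cells or treated doublets. Doublets were not called, and an alternative left out the top 5% of cells by UMIs. The 2 libraries share 2 barcodes.

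Counts were summed per side (1510309 and 1517658 UMIs; 3529709 and 3444653 ATAC counts), scaled to CPM and compared as log2 ratios with exact conditional binomial 95% intervals. The common rate is a Poisson expectation from each cell's depth. Ratios within depth groups or clusters were pooled by Mantel-Haenszel. Named genes were, among those with at least 100 UMIs, the 12 per direction whose interval lay farthest from 0 at its near bound (without Pdcd1, predicted or sex-linked genes, haemoglobins, receptor segments, and ribosomal or mitochondrial genes), the 4 members of largest absolute ratio from each of 28 lists, and a fixed set. Peaks were those within 50 kb of Pdcd1 and 5 per direction. Promoter peaks and the 5 cells with the most UMIs of a gene were looked at after values were seen. Scripts were tested on simulated data. Tools were Python 3.11.15 (matplotlib 3.10.9, pandas 2.3.3, scipy 1.17.1, numpy 2.4.6) and R 4.3.3, with edgeR 4.0.16 and DESeq2 1.42.0 for size factors in alternatives.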

Additional observations from a re-analysis of the deposited data

How the results depend on the processing

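The positive share went from 45.4% to 36.0% and 37.1% when cells were thinned to the 10th and 25th percentile of UMIs. Counts of genes depended on the rule: with at least 50 UMIs 241 were higher and 241 lower, with at least 200 UMIs 28 and 32, and with 2-fold 5 and 13. Pooled over the deposited clusters 52 genes were higher. Counting each cell once per peak left 145 more open and 68 less open peaks, at least 50 counts gave 1285 and 985, at least 200 counts 26 and 12, and at least 2 Pdcd1 UMIs gave 281 less open peaks. Cenpf turned from 1.01 to -0.21 in thinned cells; the thinned cells are fewer and shallower, and the cause was not tested. No other named gene past 1.5-fold changed sign under the alternatives run; of all 84 higher and 88 lower genes 82 and 85 kept theirs in thinned cells, but of the 34 and 37 that still reached 100 UMIs there only 18 and 21 passed 1.5-fold. No paired analysis was possible because each group has 1 library. With 1 library per group, neither mouse nor library spread can be told apart from the division, and intervals of genes held by few cells are too narrow.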

Other observations

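Gene groups of cell metabolism and antigen presentation were close to even between the sides. Of 12 glycolysis genes 9 were below 0 in Pdcd1-positive cells with a median log2 ratio of -0.15, and none passed 1.5-fold; Hif1a, the oxygen-sensing factor that drives glycolysis genes, was at 463 and 565 CPM (log2 -0.29, -0.43 to -0.14). All 13 MHC class I genes were measured, and their median was -0.09. Of 12 survival genes none passed 1.5-fold in either direction and the median was -0.02, although Bcl2, which blocks cell death, was at 633 and 479 CPM (log2 0.40, 0.26 to 0.54) and in PT-Cy at 789 and 578 CPM (log2 0.45, 0.23 to 0.66). Bcl2 was found in 58.1% of positive and 40.7% of negative alloBMT cells.

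The T cell receptor complex and its signalling genes had a median of -0.00 over 22 genes, with 11 above and 11 below 0. Prkcq, a kinase that links the receptor to NF-kB, was at 655 and 841 CPM (log2 -0.36, -0.48 to -0.24), the same direction as in PT-Cy (log2 -0.30, -0.53 to -0.07). DNA replication genes had a median of 0.05 over 15 genes and -0.08 within depth groups.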
